A study of Mus musculus with 4 samples.

Results

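A group of 9 genes was followed in cerebral cells isolated as endothelial from mice given tamoxifen to delete Mgp. They are the cerebral cavernous malformation genes Krit1, Ccm2 and Pdcd10, the Ccm2 paralogue Ccm2l, the receptor gene Heg1, the kinase gene Map3k3, and the flow-responsive transcription factor genes Klf2, Klf4 and Klf6. The members were taken by symbol from a list that was set with earlier results of these data known, and all 9 were among the 24873 genes listed. The study compared 2 control libraries with 2 tamoxifen libraries, each made from cells pooled from 3 mice, as RNA-Seq of poly(A) RNA. Per the labels, the mice of both groups were Cdh5cre;Mgpflox/flox, so that controls carried the same Cre and the same floxed Mgp alleles and differed in receiving no tamoxifen. Per the methods of the study, the Cre was the tamoxifen-dependent cre/ERT2 under the VE-cadherin promoter, mice aged 10 weeks received tamoxifen injections of 75 mg/kg on 5 consecutive days, and cells were isolated on day 9. The methods name the cells as CD31+CD45- cerebral cells, whereas the labels call them Brain tdTomato+.

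Cavernous malformations are clusters of dilated, thin-walled capillaries of the brain that arise when the endothelium loses KRIT1, CCM2 or PDCD10. These proteins form one cytoplasmic complex. The transmembrane receptor HEG1 and the small GTPase Rap1 bring KRIT1 to cell junctions, KRIT1 binds CCM2, and CCM2 binds PDCD10. CCM2 also binds the kinase MEKK3 (the product of Map3k3) and holds it in check. Freed MEKK3 acts through MEK5, ERK5 and the MEF2 factors to raise transcription of Klf2 and Klf4, and laminar blood flow raises the same genes through the same kinases. Both loss of the complex and laminar flow are thus known to raise Klf2 and Klf4 in endothelial cells. Arteriovenous malformations, the lesions that follow deletion of Mgp, are a different kind of vascular lesion.

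Values are normalized counts, that is, read counts divided by 1 factor per library. Each library held between 35387438 and 49799321 reads on genes. Changes are log2 fold changes of tamoxifen over control from limma on log2(normalized count + 1), fitted across 20485 genes with Benjamini-Hochberg adjustment. A gene was called when its adjusted p was under 0.05 and its log2 fold change was over 1 in size. The deleted gene was checked first, and Mgp measured 1094 and 1352 in the controls and 945 and 909 in the tamoxifen libraries (log2 fold change -0.39 ± 0.18 (SE), adjusted p = 0.0986 by limma), so that both tamoxifen libraries were lower and the change did not pass the test. The value for Mgp was 0.079 after rescaling to equal totals and -0.65 (adjusted p = 0.0129 by limma) after quantile normalization. By real-time PCR, the paper reported a progressive decrease of Mgp in sorted cerebral endothelial cells after tamoxifen and described the deletion as efficient. At days later than day 9 that decrease was far larger than the one measured here. All 10 endothelial markers, Pecam1 and Cdh5 among them, were called lower with a median of -2.91, and their summed normalized counts were 652043 and 693111 in the controls and 123873 and 62930.2 in the tamoxifen libraries. In the same libraries all 7 neutrophil, 7 pluripotent, 5 fibroblast, 5 astrocyte, 5 erythrocyte and 5 lymphocyte markers were called higher, with 4 of 5 oligodendrocyte, 3 of 6 microglia and macrophage, 2 of 4 neuron and 0 of 7 pericyte and smooth muscle markers. The shares called among all genes tested were 28.6% higher and 16.0% lower. No marker was at 0 in both controls. In bulk libraries fewer endothelial cells and less RNA per endothelial cell cannot be told apart, and this holds for every lower value given below.

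On the deposited scale both tamoxifen libraries lay below both controls for all 9 genes, and 6 of the 9 were called lower. Ccm2l, Klf2, Heg1, Klf6, Map3k3 and Klf4 were called, with log2 fold changes from -3.14 to -1.49, while Pdcd10, Krit1 and Ccm2 had values under the size limit. The median over the 9 genes was -1.52, against 0.05 over all genes tested. Among all genes tested, 16.0% were called lower and 28.6% higher, and 39.2% lay below both controls in both tamoxifen libraries while 43.1% lay above both. By the adjusted p alone 8 of the 9 genes were lower and 0 higher, against 25.5% lower and 33.4% higher among all genes. The split of all calls depends on the scaling, with 5867 higher and 3284 lower on the deposited scale, 7206 and 1838 after rescaling to equal totals, and 4723 and 5276 after quantile normalization. Rescaling to equal totals moves the median of all genes to 0.52 and quantile normalization moves it to -0.20, and the 6 called genes stayed at least 0.67 below that median under both. The number of the 9 genes called was 4 without tamoxifen library 2, which lost Klf4 and Klf6, 5 without tamoxifen library 1, which lost Klf6, and 7 without control library 2, which added Pdcd10.

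**Figure D1:**
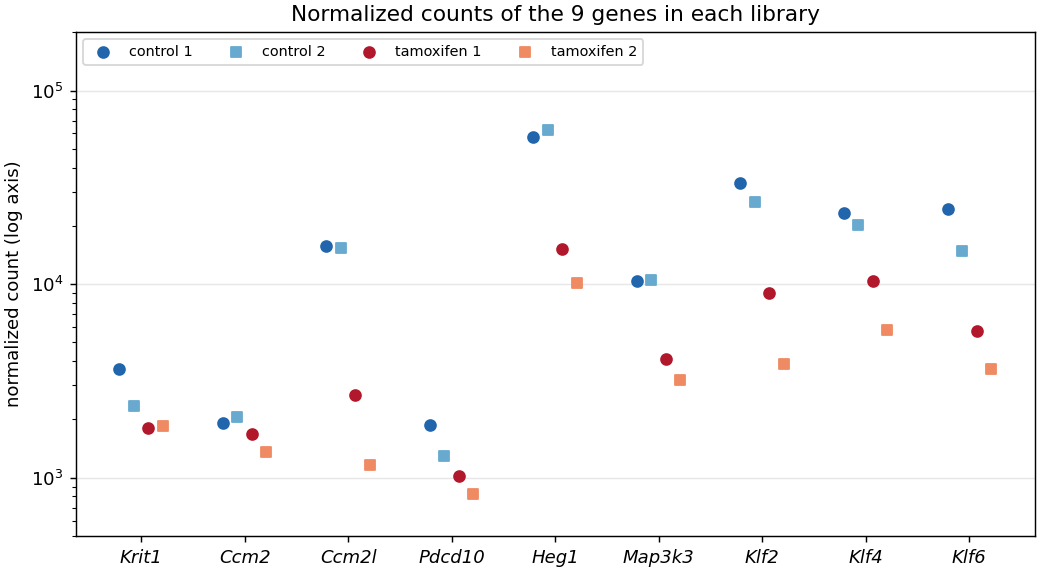
Normalized counts of the 9 genes (log axis) in each of the 4 libraries, with 1 point per library. Every gene has both tamoxifen points below both control points, from a wide gap at Ccm2l (15760.1 and 15347 against 2678 and 1157) to a narrow one at Ccm2 (1911 and 2049 against 1677 and 1359).

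Levels were compared between genes as normalized counts per kb of the canonical transcript, given as mean ± SD of 2 libraries. In the controls Klf2 was the most abundant of the 9 at 14978 ± 2464 per kb. Klf4 (7174 ± 687), Ccm2l (6804 ± 128) and Heg1 (6716 ± 357) followed, and neighbours in that order overlapped between libraries. Klf6 (4648 ± 1638) and Map3k3 (2701 ± 28.1) came next without overlap. The 3 genes of the complex itself were the lowest, with Ccm2 at 1057 ± 52.1, Krit1 at 882 ± 267 and Pdcd10 at 655 ± 169 per kb, each overlapping its neighbour. In the tamoxifen libraries the span narrowed. Klf2 (3209 ± 1816 per kb) and Klf4 (2658 ± 1070.0) overlapped, Heg1, Klf6, Map3k3, Ccm2l and Ccm2 overlapped in turn between 1412 and 810.5 per kb, and Krit1 (539.6 ± 9.4) and Pdcd10 (381 ± 55.9) stood below. Ccm2l thus went from the level of Heg1 and Klf4 to that of Ccm2.

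The 3 genes of the complex itself had the smallest log2 fold changes of the 9. Krit1 (ENSMUSG00000000600.17, chr5:3852716-3895564, plus strand, 17 exons in the canonical transcript, GRCm39) encodes the FERM-domain protein that links HEG1 and Rap1 to CCM2, and it measured 3641 and 2356 in the controls and 1811 and 1856 in the tamoxifen libraries. The 2 tamoxifen libraries were close to each other, and control library 1 stood well above control library 2. Its log2 fold change was -0.68 ± 0.22 (SE; adjusted p = 0.0288 by limma), at 61.2% of the control mean. This adjusted p was under 0.05 in 8 of 14 alternative settings and ranged from 0.00114 to 0.455 over them. Without control library 1 the change was -0.36 (adjusted p = 0.235 by limma), and without tamoxifen library 1 or 2 the adjusted p was 0.261 or 0.246 by limma. Krit1 shares its locus with Ankib1 on the opposite strand (3394 and 2787 in the controls, 2495 and 2101 in the tamoxifen libraries). The methods of the study name a stranded library kit, but the strand setting of the counting is not given in the sources used here.

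Pdcd10 (ENSMUSG00000027835.13, chr3:75423789-75464748, minus strand, 8 exons in the canonical transcript) encodes the partner that joins CCM2 to the STRIPAK kinases. It measured 1877 and 1298 in the controls and 1019.9 and 828 in the tamoxifen libraries. The gap between the groups was narrower than the spread between the controls. The log2 fold change was -0.76 ± 0.22 (SE; adjusted p = 0.0198 by limma), under 0.05 in 9 of 14 alternatives with a range from 0.000743 to 0.276. Without control library 1 it was -0.50 (adjusted p = 0.129 by limma), without control library 2 it was -1.03 and was called, and without tamoxifen library 1 or 2 the adjusted p was 0.141 or 0.243 by limma. The log2 ratio of Krit1 to Pdcd10 overlapped between groups, at 0.96 and 0.86 in the controls and 0.83 and 1.16 in the tamoxifen libraries.

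Ccm2 (ENSMUSG00000000378.17, chr11:6496830-6572662, plus strand, 10 exons in the canonical transcript) encodes the adaptor that holds KRIT1, PDCD10 and MEKK3 together. It measured 1911 and 2049 in the controls and 1677 and 1359 in the tamoxifen libraries. Both tamoxifen libraries were lower, by less than for any other of the 9 genes, and the change of -0.39 ± 0.17 (SE) did not pass the test (adjusted p = 0.0828 by limma, and 0.0554 to 0.66 over 14 alternatives). After rescaling to equal totals its value was 0.080. Ccm2 overlaps Tbrg4 and Nacad on the opposite strand, and Tbrg4 measured 1026 and 1109 in the controls and 2359 and 1939 in the tamoxifen libraries.

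Ccm2l (ENSMUSG00000027474.15, chr2:152907866-152923663, plus strand, 10 exons in the canonical transcript) encodes a paralogue of CCM2 found mainly in endothelium, which also binds KRIT1. It measured 15760.1 and 15347 in the controls and 2678 and 1157 in the tamoxifen libraries, so that the groups were far apart and tamoxifen library 2 was the lower one. The log2 fold change of -3.14 ± 0.34 (SE; adjusted p = 0.00019 by limma) was the largest of the 9 genes, and it passed 0.05 in all 14 alternatives with values from -3.75 without tamoxifen library 1 to -2.54 without tamoxifen library 2. The log2 ratio of Ccm2l to Ccm2 was 3.04 and 2.90 in the controls and 0.68 and -0.23 in the tamoxifen libraries, a difference of -2.75 without overlap. The exact permutation test over libraries (two-sided), which cannot go below p = 0.333 in a design of 2 against 2, gave that value. The 2 paralogues have promoters of different letters, shown because they differed most in how far they fell. The windows hold the 250 bases before the start of the canonical transcript in GRCm39 (chr11:6496622-6496871, plus strand, and chr2:152907616-152907865, plus strand), 5′ to 3′ on the strand of the gene, and capitals mark matches on either strand to CACCC (the core bound by KLF factors, reverse complement GGGTG) or to the GC box GGGCGG (reverse complement CCGCCC).
Ccm2: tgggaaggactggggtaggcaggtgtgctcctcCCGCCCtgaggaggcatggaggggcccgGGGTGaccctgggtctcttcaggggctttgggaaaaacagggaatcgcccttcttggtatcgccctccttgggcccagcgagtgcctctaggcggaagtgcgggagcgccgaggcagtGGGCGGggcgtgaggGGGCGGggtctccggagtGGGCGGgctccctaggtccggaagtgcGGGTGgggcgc
Ccm2l: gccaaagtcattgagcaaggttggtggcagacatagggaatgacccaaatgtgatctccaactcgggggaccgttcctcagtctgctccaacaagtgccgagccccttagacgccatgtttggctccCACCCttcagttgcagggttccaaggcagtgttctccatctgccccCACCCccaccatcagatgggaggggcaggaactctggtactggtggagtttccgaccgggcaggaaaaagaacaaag
Ccm2 has 2 CACCC matches and 4 GC boxes in a window of 70.0% G and C, and part of that window lies within the annotated gene, since other transcripts start further upstream. Ccm2l has 2 CACCC matches and no GC box in a window of 56.4% G and C. Among 16627 promoters of the same length, 57.0% hold a CACCC match and 44.9% a GC box, so that both are common, and a match here is a description of the letters.

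Heg1 (ENSMUSG00000075254.14, chr16:33504740-33591946, plus strand, 17 exons in the canonical transcript) encodes the transmembrane receptor that anchors KRIT1 at endothelial junctions. It had the highest normalized counts of the 9 genes, 57851 and 62369 in the controls, and 15121 and 10154 in the tamoxifen libraries. The groups were far apart, and the log2 fold change was -2.28 ± 0.26 (SE; adjusted p = 0.000217 by limma), a mean 4.76-fold lower. The log2 ratio of Heg1 to Krit1, the receptor over the protein it anchors, was 3.99 and 4.73 in the controls and 3.06 and 2.45 in the tamoxifen libraries, a difference of -1.60 without overlap (exact permutation p = 0.333, the smallest possible).

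Map3k3 (ENSMUSG00000020700.13, chr11:105975186-106046608, plus strand, 16 exons in the canonical transcript) encodes MEKK3, the kinase that the complex restrains. It measured 10326 and 10479.6 in the controls and 4111 and 3208 in the tamoxifen libraries, with tight controls and no overlap. The log2 fold change was -1.52 ± 0.18 (SE; adjusted p = 0.000244 by limma), at 35.2% of the control mean. Map3k2, its close relative MEKK2, measured 3307 and 2058 and 1375 and 1451 (-0.88 ± 0.23, adjusted p = 0.0121 by limma). The log2 ratio of Map3k3 to Map3k2 was 1.64 and 2.35 in the controls and 1.58 and 1.14 in the tamoxifen libraries, lower under tamoxifen by a narrow gap. Map3k3 overlaps Limd2 on the opposite strand, which was higher in the tamoxifen libraries at 2229 and 1686 against 437 and 544 in the controls.

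Among the listed genes that act with or below MEKK3, no kinase gene was called and all 3 listed MEF2 genes were. Map2k5, which encodes MEK5, measured 1868 and 1989 in the controls and 1228 and 986 in the tamoxifen libraries (-0.81 ± 0.18, adjusted p = 0.00532 by limma). Mapk7, which encodes ERK5, measured 2223 and 2512 and 1899.9 and 1866 (-0.33 ± 0.15, adjusted p = 0.101 by limma) and did not pass, with a value of 0.14 after rescaling to equal totals. Map2k5 did not pass without tamoxifen library 2 (adjusted p = 0.0649 by limma), nor Map3k2 without control library 1, tamoxifen library 1 or tamoxifen library 2 (adjusted p = 0.0754, 0.210 and 0.190 by limma). The 3 MEF2 factor genes listed, whose products are nuclear targets of ERK5, were all called lower. No other MEF2 gene was on the list. Mef2a went from 14009.6 and 11401 to 3789 and 3014 (-1.90 ± 0.19), Mef2c from 4098 and 3537 to 1418 and 1361 (-1.45 ± 0.16), and Mef2d from 11776 and 11412 to 5096 and 4171 (-1.33 ± 0.17). In each of these genes the groups were well apart. Tlr4, the receptor for bacterial lipopolysaccharide that acts through MEKK3, measured 330.1 and 180.2 and 381 and 378 (adjusted p = 0.136 by limma), and its coreceptor gene Cd14 measured 16.4 and 50.1 and 103 and 79.1 (adjusted p = 0.0555 by limma). Neither passed the test, although both tamoxifen libraries were the higher ones in each on the deposited scale (Tlr4 was -0.39 after quantile normalization). Tlr4 passed without control library 1 (1.07, adjusted p = 0.0171 by limma) and Cd14 without control library 2 (2.39, adjusted p = 0.00213 by limma), and summed microglia and macrophage markers, whose cells also carry these receptors, were 1225 and 2309 in the controls and 4163 and 3739.7 in the tamoxifen libraries. Of these 6 markers 3 were called higher. Ptprc, which encodes CD45, was among them at 50.7 and 83.9 in the controls and 1423 and 1119 in the tamoxifen libraries. Cx3cr1 and P2ry12 overlapped between groups and were not called, while all 7 neutrophil markers were called higher. The methods describe a sort for CD45- cells. The part of microglia, macrophages and neutrophils in the values of Tlr4 and Cd14 was not tested. The 8 genes of the cascade thus held 3 called lower and 0 called higher, with a median of -0.85, and 1 was called higher without control library 1 or 2. Among all genes tested on the deposited scale, 16.0% were called lower and 28.6% higher. After rescaling to equal totals the balance of the cascade turned, with 1 called lower and 2 higher.

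**Figure D2:**
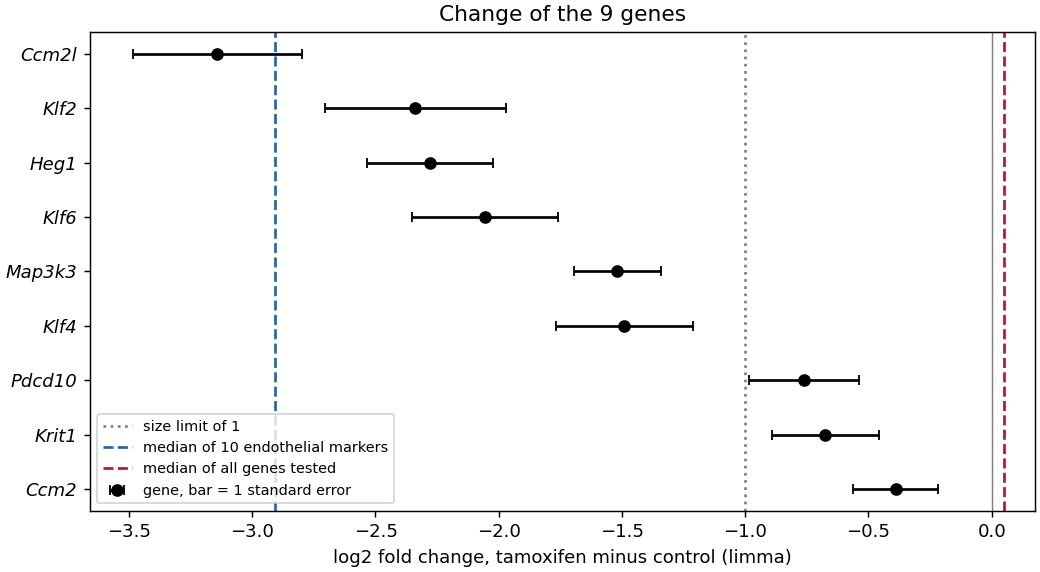
Log2 fold change of tamoxifen over control for each of the 9 genes, ordered by size, with bars of 1 standard error from limma. Ccm2l at -3.14 lies beyond the median of the 10 endothelial markers (-2.91, dashed), Klf2, Heg1, Klf6, Map3k3 and Klf4 lie between it and the size limit, and Pdcd10 (-0.76), Krit1 (-0.68) and Ccm2 (-0.39) lie between the limit and the median of all genes (0.05).

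Normalized counts of Klf2 and Klf4, the known outputs of the cascade, and of Klf6 were lower in the tamoxifen libraries. Klf2 (ENSMUSG00000055148.9, chr8:73072726-73075502, plus strand, 3 exons in the canonical transcript), the flow-induced factor that keeps endothelium quiescent, measured 33406 and 26445 in the controls and 8977 and 3846 in the tamoxifen libraries. The groups did not overlap, and tamoxifen library 2 was at 42.9% of tamoxifen library 1. The log2 fold change was -2.34 ± 0.37 (SE; adjusted p = 0.00108 by limma), at 21.4% of the control mean, and passed 0.05 in all 14 alternatives. Klf4 (ENSMUSG00000003032.10, chr4:55527139-55532528, minus strand, 5 exons in the canonical transcript), which acts beside KLF2 in endothelium and is also one of the factors used to make pluripotent cells, measured 23232 and 20285 in the controls and 10357 and 5767 in the tamoxifen libraries. Its log2 fold change was -1.49 ± 0.28 (SE; adjusted p = 0.00262 by limma), and without tamoxifen library 2 it was -1.07 with an adjusted p of 0.0516 by limma. After quantile normalization it was -0.87, under the size limit. Klf6 (ENSMUSG00000000078.9, chr13:5911481-5920393, plus strand, 4 exons in the canonical transcript), a widely expressed factor induced by injury in endothelial cells, measured 24532 and 14744 in the controls and 5720.3 and 3664 in the tamoxifen libraries. Control library 1 was well above control library 2, and still no tamoxifen library reached either. Its log2 fold change was -2.05 ± 0.30 (SE; adjusted p = 0.000704 by limma), and the adjusted p was 0.0575 without tamoxifen library 1 and 0.0917 without tamoxifen library 2 by limma.

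Ratios between the 3 KLF genes were compared library by library. The log2 ratio of Klf2 to Klf4 was 0.52 and 0.38 in the controls and -0.21 and -0.58 in the tamoxifen libraries. That difference was -0.85. In normalized counts, which are not corrected for transcript length, Klf2 was above Klf4 in each control and below it in each tamoxifen library. Per kb of the canonical transcript the order did not turn. Klf2 stayed above Klf4 in the tamoxifen libraries, at 4493 and 1925 against 3415 and 1901. The ratio of Klf4 to Klf6 was higher under tamoxifen, by 0.56, at -0.08 and 0.46 in the controls and 0.86 and 0.65 in the tamoxifen libraries. The ratio of Klf2 to Klf6 overlapped, at 0.45 and 0.84 in the controls and 0.65 and 0.07 in the tamoxifen libraries. For the ratios without overlap the exact permutation p over libraries was 0.333, the smallest possible with 2 against 2, and for the ratio of Klf2 to Klf6 it was 0.667. Klf2 overlaps Eps15l1 on the opposite strand, which measured 6064 and 6044 in the controls and 4169 and 3833 in the tamoxifen libraries.

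The MEF2 factors are known to bind the regulatory DNA of Klf2 and Klf4. All 3 KLF genes were lower, as were Mef2a, Mef2c and Mef2d, where 39.2% of all genes tested lay below both controls. A link between these falls was not tested. The 250 bases before the canonical start of each of the 3 KLF genes are shown (GRCm39, 5′ to 3′ on the strand of the gene). The windows are chr8:73072476-73072725, plus strand, for Klf2, chr4:55532467-55532716, minus strand, for Klf4, and chr13:5911231-5911480, plus strand, for Klf6. Capitals mark matches on either strand to a form of the MEF2 motif (CTA, any 4 bases, TAG), to CACCC and to the GC box GGGCGG.
Klf2: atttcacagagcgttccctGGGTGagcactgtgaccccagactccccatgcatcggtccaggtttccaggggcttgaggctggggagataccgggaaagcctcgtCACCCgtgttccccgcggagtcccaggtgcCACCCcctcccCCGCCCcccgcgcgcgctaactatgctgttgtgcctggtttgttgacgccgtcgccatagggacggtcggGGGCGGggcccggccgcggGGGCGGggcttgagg
Klf4: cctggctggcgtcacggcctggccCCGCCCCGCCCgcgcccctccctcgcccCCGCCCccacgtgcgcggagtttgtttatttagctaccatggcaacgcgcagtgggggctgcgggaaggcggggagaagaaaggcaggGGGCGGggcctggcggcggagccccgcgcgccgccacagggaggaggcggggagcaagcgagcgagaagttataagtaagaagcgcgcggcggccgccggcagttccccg
Klf6: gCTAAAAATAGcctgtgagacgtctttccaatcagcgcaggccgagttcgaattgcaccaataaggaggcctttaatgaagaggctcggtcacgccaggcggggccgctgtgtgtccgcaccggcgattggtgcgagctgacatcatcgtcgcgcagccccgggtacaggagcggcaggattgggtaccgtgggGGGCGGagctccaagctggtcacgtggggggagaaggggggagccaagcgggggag
The MEF2 form searched (CTA, any 4 bases, TAG) was matched only in Klf6 among these 3 windows. The match was CTAAAAATAG, from 249 to 240 bases upstream of the start. Of the 16627 promoters, 3.05% hold such a match, and other forms of the motif were not searched. Klf2 has CACCC matches at 231, 145 and 115 bases upstream and GC boxes at 104, 34 and 15. Klf4 has 4 GC boxes, the first 2 of which overlap, and part of its window lies within the annotated gene, since other transcripts start further upstream. No match in Klf2 or Klf4 says only that these letters are not in these windows.

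Klf2, Klf4 and Klf6 are also genes that rise within minutes when tissue is dissociated, as the immediate early genes do. A list of 12 immediate early genes, written after the values of the KLF genes had been seen, was therefore read beside them. Of these, 11 were below both controls in both tamoxifen libraries and 1, Egr1, overlapped, where 39.2% of all genes tested lay below both controls. Their median log2 fold change was -1.87, and their summed normalized counts were 114282 and 91305 in the controls and 37977 and 23409 in the tamoxifen libraries. The lowest value was that of Fosb at -2.52. The part of this in the KLF values was not tested.

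The rest of the KLF family moved in both directions. Of 12 other family members tested, 5 were called lower and 4 higher, with a median of -0.29, where 16.0% of all genes tested were called lower and 28.6% higher. After rescaling to equal totals 2 were called lower and 4 higher. Klf17 was at 0 reads in both controls and too low for the test, and Klf14 was not among the genes listed. The 5 called lower were Klf13 (21838 and 23322 against 7792 and 6665, -1.65), Klf7 (15798 and 13286 against 4694 and 4582, -1.64), Klf12 (-1.39), Klf11 (-1.38) and Klf9 (13371 and 12732 against 5829.7 and 6268, -1.11). Klf12 did not pass without tamoxifen library 1 (adjusted p = 0.0545 by limma). Klf3 measured 9688 and 9614 and 7312 and 5631 (-0.59, adjusted p = 0.0247 by limma), a value that passed in 8 of 14 alternatives and not without control library 1, control library 2 or tamoxifen library 2 (adjusted p from 0.0800 to 0.0976 by limma). Klf10 (0.33) and Klf16 (0.00) did not pass, although both did after rescaling to equal totals (0.80 and 0.47) and Klf10 did after quantile normalization (0.49).

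The 4 KLF genes called higher were near the bottom of the family in the controls. Klf5, a factor of epithelia and pluripotent cells, measured 63.0 and 70.1 in the controls and 5959 and 4989.9 in the tamoxifen libraries (6.34 ± 0.21, SE). Klf1, the erythroid factor that switches on adult globin, measured 16.4 and 10.01 and 1096 and 790.1 (6.07 ± 0.42). Klf15 measured 78.1 and 86.4 and 685 and 932 (3.27 ± 0.29), with tamoxifen library 2 the higher one. Klf8 measured 71.2 and 106 and 674 and 523 (2.76 ± 0.33), and did not pass without tamoxifen library 1 or 2 (adjusted p = 0.0623 and 0.0552 by limma). In the same libraries the summed pluripotent markers were 68.5 and 110.1 in the controls and 51305 and 39408 under tamoxifen, the summed erythrocyte markers 17381 and 35081 and 158663 and 101581, and the summed astrocyte markers 15201 and 24213 and 114811 and 250637. Their part in these rises was not tested.

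As a share of all KLF normalized counts per kb, over the 16 family members listed, Klf2 held 38.5% ± 1.33 (SD, n = 2) in the controls and 19.8% ± 6.33 (SD, n = 2) in the tamoxifen libraries. Klf5 held 0.0513% ± 0.0105 (SD, n = 2) and 10.6% ± 1.57 (SD, n = 2). The share of Klf4 was 18.5% ± 0.643 (SD, n = 2) and 16.8% ± 2.34 (SD, n = 2), overlapping between groups. Klf2 and Klf4 ranked first and second in both groups, Klf6 went from rank 3 to rank 6, and Klf5 from rank 13 to rank 3.

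**Figure D3:**
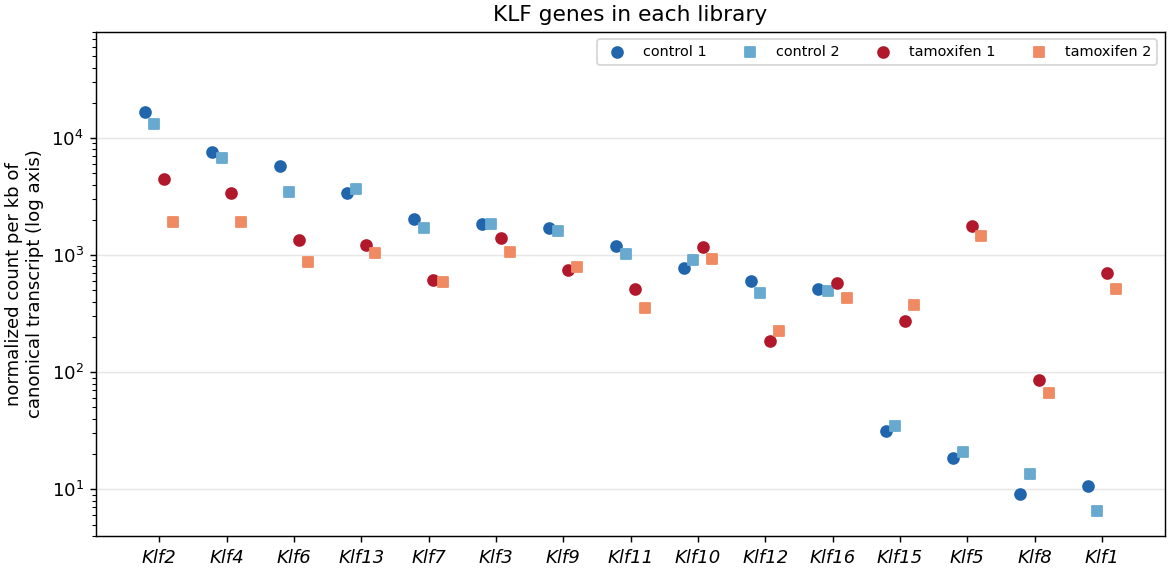
Normalized counts per kb of canonical transcript (log axis) of the 15 KLF genes that passed the filter, in each of the 4 libraries, ordered by the control mean. The control points span from Klf2 at 16719.9 and 13236 down to Klf1 at 10.6 and 6.48, and the tamoxifen points of Klf5, Klf1, Klf15 and Klf8 lie above their controls while those of Klf2, Klf4 and Klf6 lie below.

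Genes known to be induced by KLF2 and KLF4 split between a group that fell and a pair that rose. Of 8 listed, 7 were tested, of which 4 were called lower and 2 higher, with a median of -2.74. Calls over all genes tested were 16.0% lower and 28.6% higher. Tek, which encodes the angiopoietin receptor TIE2, went from 60505 and 56341 to 9070.3 and 4316 normalized counts (-3.22 ± 0.33, SE), and Nherf2, which encodes a PDZ scaffold, from 50789.7 and 55755 to 8825 and 4573 (-3.07 ± 0.31). In both, tamoxifen library 2 was the lower one. Aqp1, a water channel gene also strong in choroid plexus and red cells, went from 152 and 267 to 7930.1 and 6142 (5.11 ± 0.28). Plpp3, a lipid phosphatase gene also strong in astrocytes, went from 3609 and 4344 to 16319.8 and 32322 (2.54 ± 0.31). The part of other cells in the rises of Aqp1 and Plpp3 was not tested.

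Of the 6 genes known to be repressed by KLF2, 1 was called lower and 3 higher, with a median of 1.04. The shares over all genes tested were 16.0% lower and 28.6% higher. Edn1, which encodes the vasoconstrictor endothelin-1, went from 6836 and 8795 to 1076 and 434 (-3.50 ± 0.38), the largest fall of any gene in the pathway lists. Ccl2, a monocyte chemokine gene, went from 21.9 and 17.5 to 976 and 727 (5.36 ± 0.37). F3, which encodes tissue factor and is strong in astrocytes, went from 237 and 288 to 3627 and 6960.4 (4.26 ± 0.30). The count called lower was 2 without control library 2, without tamoxifen library 1 or after quantile normalization.

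Of 9 genes studied in cavernous malformation lesions, all were called, 4 lower and 5 higher, with a median of 1.06. Over all genes tested, 16.0% were called lower and 28.6% higher. Dll4, the Notch ligand of arterial and tip cells, went from 16664 and 13104 to 2797 and 1580.1 (-2.81 ± 0.27), and Angpt2, the TIE2 antagonist, from 6801 and 6926 to 1216 and 889 (-2.72 ± 0.19). Vcan, which encodes the proteoglycan versican, went from 660.2 and 443 to 5469.9 and 6518 (3.46 ± 0.22), and Adamts4, a protease that cleaves versican, from 139.7 and 97.6 to 738 and 539 (2.42 ± 0.31). Fibroblasts are a known source of versican, and the summed fibroblast markers were 1712 and 2439 in the controls and 61493 and 50945 in the tamoxifen libraries, whose part was not tested. Leaving out tamoxifen library 1 gave 3 called higher, with Adamts4 at an adjusted p of 0.0662 by limma, and leaving out tamoxifen library 2 gave 2, with Adamts4 at 0.0547. Quantile normalization gave 3 called higher.

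Among the flow sensors, 8 of 10 were called lower and 0 higher, against 16.0% lower and 28.6% higher of all genes tested, with a median of -1.18. Flt4, which encodes VEGF receptor 3 of the junctional flow complex, went from 21954 and 24059 to 4195 and 2395 (-2.86 ± 0.26), and Trpv4, a calcium channel gene, from 1157 and 1026 to 250.4 and 237 (-2.16 ± 0.21). Without tamoxifen library 2 the count called lower was 5, and after rescaling to equal totals or quantile normalization it was 3. Of the 15 STRIPAK genes, whose products bind PDCD10 or its kinases, 4 were called lower and 2 higher, with a median of -0.51. Cttnbp2nl went from 14300.0 and 11103 to 3688 and 2917 (-1.94 ± 0.20) and Sike1 from 5984 and 5324 to 2594 and 2638 (-1.11 ± 0.15). Stk26, which encodes the PDCD10-binding kinase MST4, rose to 157 and 129 from 5.48 and 3.75, which rest on 4 and 3 reads, and Strip2 rose from 24.7 and 35.0 to 211 and 417 (3.29 ± 0.48). Without tamoxifen library 2 the counts were 2 lower and 1 higher, Strip2 not passing (adjusted p = 0.0700 by limma), and at most 5 were called lower over the libraries left out. After rescaling to equal totals or quantile normalization 1 was called lower.

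**Figure D4:**
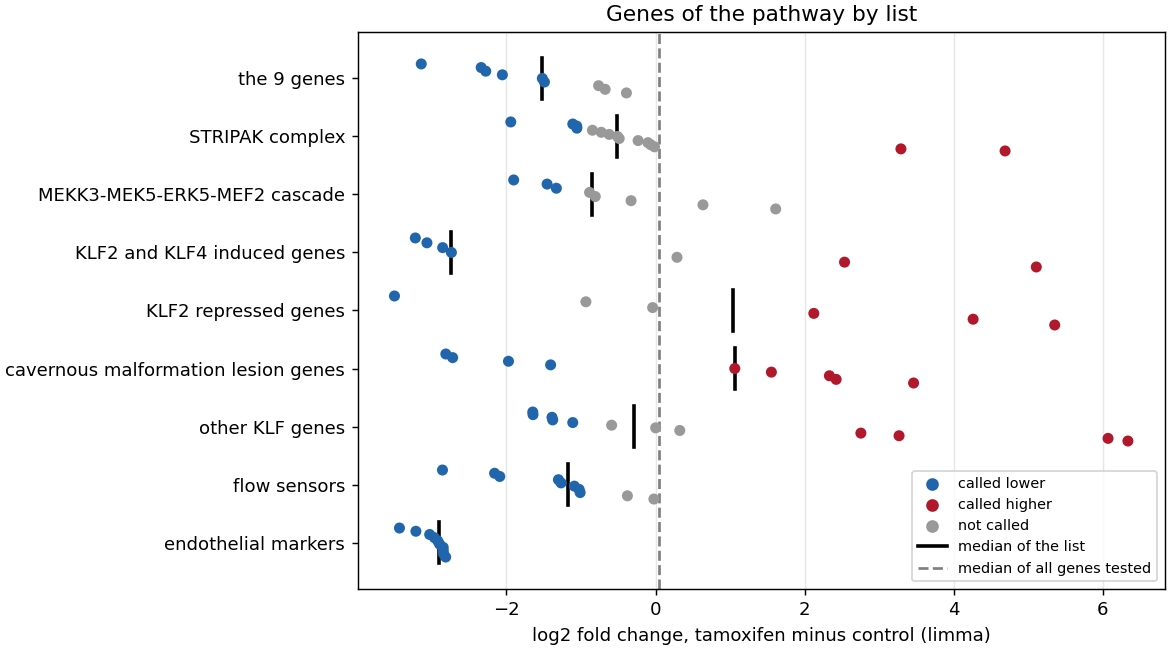
Log2 fold changes of the tested genes of each list, 1 point per gene, coloured by call, with the median of each list as a black bar and that of all genes tested as a dashed line. The 9 genes (median -1.52) lie between the flow sensors (-1.18) and the KLF2 and KLF4 induced genes (-2.74), and the 10 endothelial markers form a narrow group around -2.91.

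The 9 genes were next set against the endothelial markers of the same libraries. The mean log2(normalized count + 1) of the 10 markers was subtracted from that of each gene, library by library. Relative to this panel 8 of the 9 genes were higher in both tamoxifen libraries than in both controls. Since 94.6% of all genes tested were higher on this scale and 0.561% lower, a count of 8 of 9 is near the background. Ccm2l was the exception, at -1.82 and -1.95 in the controls and -1.93 and -2.17 in the tamoxifen libraries, so that the groups overlapped and the difference was -0.16, or -0.30 with Pecam1 and Cdh5 alone as the panel. Klf2 was -0.74 and -1.17 in the controls and -0.19 and -0.44 under tamoxifen, a difference of 0.64, and Heg1 differed by 0.70. The differences were 0.93 for Klf6, 1.46 for Map3k3 and 1.49 for Klf4. Krit1, Pdcd10 and Ccm2 differed by 2.31, 2.22 and 2.59. The part of other cells in these differences was not tested. For the 8 genes without overlap the exact permutation p over libraries was 0.333, the smallest possible, and for Ccm2l it was 0.667.

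**Figure D5:**
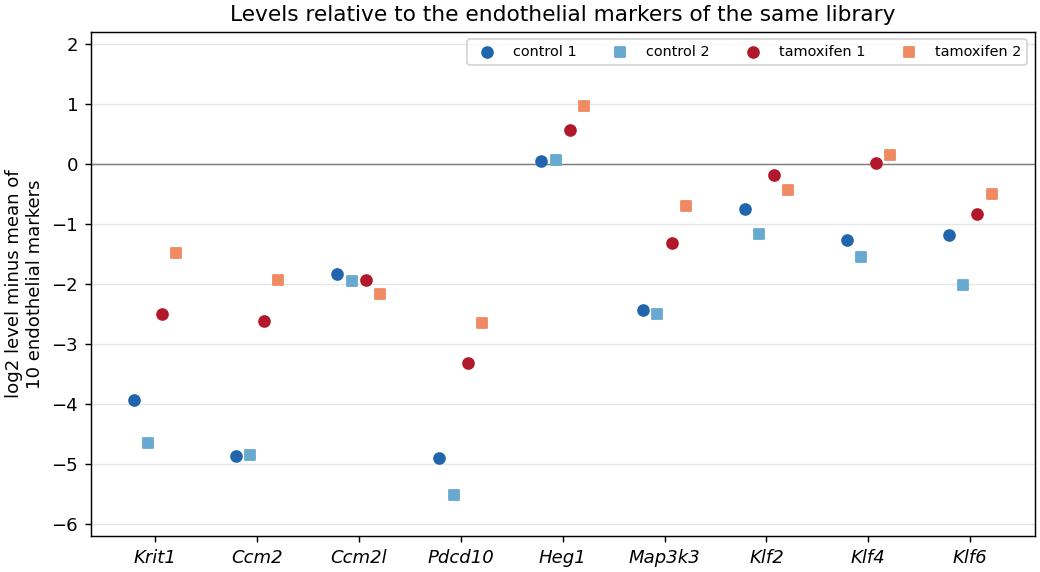
Log2 level of each of the 9 genes minus the mean of 10 endothelial markers in the same library, 1 point per library. The tamoxifen points lie above the control points for 8 genes, with the widest gap at Ccm2 (difference 2.59), and the groups overlap at Ccm2l (difference -0.16).

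The 2 tamoxifen libraries also differed from each other in these genes. Of the 9 genes, 8 were lower in tamoxifen library 2 than in tamoxifen library 1, as were all 10 endothelial markers, against 58.0% of all genes tested. The endothelial panel of library 2 was at 50.9% of that of library 1. Klf2 (42.9%), Ccm2l (43.2%), Klf4 (55.7%), Klf6 (64.1%) and Heg1 (67.2%) were the most reduced, followed by Map3k3 (78.0%), Ccm2 (81.1%) and Pdcd10 (81.2%), while Krit1 was at 102%. Between the controls 6 of the 9 genes were lower in library 2, against 43.6% of all genes tested, with Klf6, Krit1 and Pdcd10 lower by -0.73, -0.63 and -0.53 on the log2 scale, and 8 of the 10 endothelial markers were higher there.

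Genes with the most similar pattern were found by the Euclidean distance of log2(normalized count + 1) over the 4 libraries, after each gene was centred on its mean, among 13668 genes with a mean of at least 100. The nearest to Ccm2l were Prkch (distance 0.0598), Wfdc1 and Spock2. Heg1 was nearest to Nipal3 (0.0603), Gbp2 and Caskin2, and Map3k3 to Slc16a13 (0.0298), Casp6 and Hes1. For the KLF genes the nearest were BC060293 (0.0216), Gm42528 and P2ry10b to Klf2, the immediate early gene Ier2 (0.119), Rasgrp4 and Parp10 to Klf4, and Nat8f2 (0.115), Rnf213 and 4931422A03Rik to Klf6. Krit1 was nearest to Dusp8 (0.0609), Mysm1 and Lcorl, Ccm2 to Snx9 (0.0235), Rer1 and Dad1, and Pdcd10 to Arl5b (0.0584), Wdr44 and Swt1. With 4 libraries such likeness is a description of levels only.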

How the data were processed

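RNA-Seq libraries of mouse cerebral cells isolated as endothelial were compared, 2 control against 2 tamoxifen. Per the methods of the study and the submitters' processing notes, reads were aligned with STAR 2.7.10a to GRCm39, genes with low counts were excluded and counts were normalized with DESeq2 1.36.0; the annotation release, the strand setting and the low-count limit are not given in the sources used here. The deposited signal of a gene is its read count over a library-wide factor set by the authors. The smallest step of each column gave the reads back, with 100% of values whole within 0.001, in totals of 37475154 and 41025014 in the controls and 35387438 and 49799321 in the tamoxifen libraries. This covers counting error only. Columns are headed C1, C2, A1 and A2. C was taken for control and A for tamoxifen, although the labels use no letter A. Libraries were pools of cells, so p-values measure the spread between pools, with 2 per group.

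The limma package (3.58.1, under R 4.3.3) was fitted with a mean-variance trend to log2(normalized count + 1) of the 20485 genes whose mean reached 10, with Benjamini-Hochberg adjustment, and the script was tested on simulated data. Fold changes on this scale understate the change of low genes. A gene was called at an adjusted p under 0.05 and a log2 fold change over 1 in size, and a single gene's stability is judged by the adjusted p alone. Locations, transcript lengths and promoters came from GENCODE M39 on GRCm39, in which 24451 genes were found by symbol. The files list Slc9a3r2 as Nherf2. The genes named are the 9 genes, Mgp, the tested genes of the MEKK3 cascade and the KLF family, the 2 called genes with the largest change in each direction of every other list, and the 3 nearest genes to each of the 9. Ankib1, Tbrg4, Nacad, Limd2, Eps15l1, Egr1 and Fosb were named after their values were seen. The 9 genes, the lists and the tests were chosen with earlier results of these data known. Same-numbered libraries did not deviate together (correlation of deviations 0.0251). A list of partner genes of the complex is not reported here.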

Additional observations from a re-analysis of the deposited data

How the results depend on the processing

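Alternatives varied the pseudocount (0.5 or 5), the filter (none, or a mean of 100), the scaling (equal totals, or quantile normalization), the trend (left out), the design (a replicate block), the model (edgeR 4.0.16 or DESeq2 1.42.0, both fitted to the recovered reads), the libraries (leaving out 1 at a time), the threshold (adjusted p alone), and the endothelial panel (Pecam1 and Cdh5 alone). The 9 genes held 6 called lower and 0 higher under edgeR, DESeq2, both pseudocounts, both filters, equal totals, no trend and the block, and 5 lower under quantile normalization. Of the counts over the lists, the 9 genes and all genes, 245 stayed within 1.5 times their value on the deposited scale and 32 did not.

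With equal totals Ccm2 was 0.080, Mgp 0.079 and Mapk7 0.14, turned from lower to higher. The lists then held 1 STRIPAK gene, 1 gene of the MEKK3 cascade, 2 other KLF genes, 3 flow sensors and 1838 of all genes called lower, and 2 genes of the cascade called higher. With quantile normalization Klf16 was -0.12 and Tlr4 -0.39. The lists then held 1 STRIPAK gene, 2 KLF2 repressed genes, 3 flow sensors and 5276 of all genes called lower, and 3 lesion genes called higher. By the adjusted p alone 9 STRIPAK genes, 5 genes of the cascade, 2 KLF2 repressed genes and 5228 of all genes were lower. With the filter at 100, 1 STRIPAK gene and 3540 of all genes were called higher. With a pseudocount of 5, 1 gene of the cascade was called higher. Equal totals shift all genes alike, the filter tests fewer genes and the adjusted p alone drops the size limit. For quantile normalization and the pseudocount the cause was not tested. With the panel of Pecam1 and Cdh5 the difference of Ccm2l was -0.30.

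With the replicate number as a block, 1 gene of the cascade (Cd14) was called higher, and the 9 genes kept 6 calls. The numbers do not pair the libraries, and the block changed no other count by over 1.5 times.

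With each library left out in turn, the 9 genes held 4 to 7 called lower. The ranges called lower were 2 to 5 for STRIPAK genes, 1 to 2 for KLF2 repressed genes, 5 to 8 for flow sensors and 1594 to 3537 for all genes. The ranges called higher were 1 to 2 for STRIPAK genes, 0 to 1 for the cascade, 2 to 5 for lesion genes and 2553 to 6163 for all genes. Klf16 ranged from -0.21 without tamoxifen library 1 to 0.21 without tamoxifen library 2, and was -0.02 without control library 2. The lone library of a group is assumed to vary like the other group. Among the 9 genes the smallest count was 941 reads, of Pdcd10, so that the number of libraries limits the precision more than the depth.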
